A study of Mus musculus with 4 samples.

Results

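Fat cells release proteins that act on other tissues, and 10 genes for such adipokines and secreted factors were followed in RNA-Seq of brown preadipocytes with and without the histone methyltransferase MLL4. They were *Adipoq*, *Retn*, *Lep*, *Cfd*, *Rbp4*, *Fgf21*, *Lcn2*, *Nampt*, *Apln* and *Rarres2*, 10 of the 22463 genes with a symbol in the files. The list was fixed by gene name and not by a cutoff on values, though with earlier results of these data known, and each was represented by the RefSeq transcript with most reads over the 4 libraries. The cells were brown preadipocytes of E18.5 *Mll3*-/-*Mll4* f/f mouse embryos on the C57BL/6J background, immortalized with SV40T. Adenovirus carrying GFP (Ad-GFP, the control cells) left them *Mll3*-/-, which the labels call WT, and adenovirus carrying Cre (Ad-Cre) made them *Mll3*-/-*Mll4*-/-, so all groups lacked MLL3. RNA was taken at day 0, before, and at day 2 of adipogenesis, which was induced with 0.02 mM insulin, 1 nM T3, 0.125 mM indomethacin, dexamethasone and 0.5 mM IBMX. Each of the 4 conditions had 1 library and all came from immortalized cells of this origin, so no replicate spread was known and no test between conditions was run. The Cre virus was set against a GFP virus, and an effect of Cre itself cannot be told apart from that of the lost MLL4.

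Adipokines are hormones, carriers and enzymes that fat tissue secretes to report its energy stores and to act on liver, muscle, brain and vessels. Most of them come on late, as preadipocytes turn into fat cells under the transcription factors C/EBPα and PPARγ, while some, such as lipocalin 2, are also made by many cells under inflammatory signals. MLL4 places mono- and di-methyl marks on histone H3 lysine 4 at enhancers.

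Transcript levels are given as reads and as RPKM, the reads scaled to transcript length and to library depth. Between 15831915 and 22099995 reads were counted on transcripts per library. A gene was called expressed at an RPKM above 1 in control cells at day 0 or day 2 (11541 genes), and a ratio between libraries was called past 2.5-fold, the cutoff of the study. The 95% confidence intervals (CI) are exact binomial intervals of the ratio of reads and cover counting error only, comparing these libraries rather than the conditions. A count of 0 was set at 3 reads, which gives a bound that leaves out counting error. No ratio was formed where both libraries had 3 reads or fewer. Reads on *Kmt2d*, the gene of MLL4, numbered 6304 and 8530 in control cells and 6316 and 5595 in Ad-Cre cells at days 0 and 2, with log2 ratios of −0.18 at day 0 and −0.26 at day 2 after scaling. These counts over the whole transcript do not check the deletion of its floxed exons. *Kmt2c*, the gene of MLL3, had 522, 1224, 463 and 451 reads in the same order, with log2 ratios of −0.36 at day 0 and −1.09 at day 2. The *Mll3* allele carries a gene trap, and these counts do not check its effect either. Adipocyte markers rose in both cell types, from a summed RPKM of 19.8 to 1577 in control and from 19.7 to 381 in Ad-Cre cells. Of the brown fat markers, *Cidea* had 0 reads in every library, *Ucp1* at most 1 and *Ppargc1a* at most 9. *Prdm16* had 82 and 424 reads in control and 116 and 105 in Ad-Cre cells, and *Elovl3* had 0 and 31, and 1 and 15. Of these 5 markers only *Prdm16* passed 1 RPKM in control cells. Summed RPKM was at most 0.405 for 5 macrophage markers, of which *Adgre1* and *Ptprc* had 0 reads in every library, at most 0.225 for 4 endothelial and at most 1.09 for 4 hepatocyte markers. In bulk RNA, fewer fat cells and less RNA per fat cell cannot be told apart.

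The starts of 4 genes are shown, since the results turn on them: *Adipoq*, *Retn* and *Nampt* were lower in Ad-Cre than in control cells at day 2 and *Lcn2* was higher there. Each window runs from 250 bases before to 50 bases after the RefSeq start on GRCm38.p6, 5′ to 3′ in the direction of the gene, with matches to the searched motifs in capitals.
*Adipoq*, chr16:23146286-23146585, plus strand: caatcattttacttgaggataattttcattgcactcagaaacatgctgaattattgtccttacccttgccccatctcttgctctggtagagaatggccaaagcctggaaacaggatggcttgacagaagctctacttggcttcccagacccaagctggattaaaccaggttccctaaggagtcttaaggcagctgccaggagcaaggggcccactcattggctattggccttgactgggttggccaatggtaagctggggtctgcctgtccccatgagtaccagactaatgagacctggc
*Retn*, chr8:3655520-3655819, plus strand: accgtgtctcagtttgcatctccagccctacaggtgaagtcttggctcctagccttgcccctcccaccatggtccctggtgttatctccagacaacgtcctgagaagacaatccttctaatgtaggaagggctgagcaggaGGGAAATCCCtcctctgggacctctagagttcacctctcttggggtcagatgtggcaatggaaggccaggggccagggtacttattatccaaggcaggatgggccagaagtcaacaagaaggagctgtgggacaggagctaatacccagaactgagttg
*Nampt*, chr12:32820085-32820384, plus strand: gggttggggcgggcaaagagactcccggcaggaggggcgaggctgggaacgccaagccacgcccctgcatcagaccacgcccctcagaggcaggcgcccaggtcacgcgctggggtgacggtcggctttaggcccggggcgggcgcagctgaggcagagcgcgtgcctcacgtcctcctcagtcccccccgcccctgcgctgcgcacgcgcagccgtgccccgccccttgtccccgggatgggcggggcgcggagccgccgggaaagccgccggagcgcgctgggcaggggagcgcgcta
*Lcn2*, chr2:32387690-32387989, minus strand: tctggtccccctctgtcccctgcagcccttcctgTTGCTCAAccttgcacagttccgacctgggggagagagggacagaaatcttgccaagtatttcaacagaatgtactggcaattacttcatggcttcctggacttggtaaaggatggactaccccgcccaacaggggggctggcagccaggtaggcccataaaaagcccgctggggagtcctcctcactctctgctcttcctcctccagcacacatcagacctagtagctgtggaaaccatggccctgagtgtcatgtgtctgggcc

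The capitals in *Lcn2* mark a C/EBP-type match (TTGCNNAA) that starts 216 bases before the start, and those in *Retn* a kappaB match 109 bases before it. Both strands were searched for 5 motifs in 10 windows, which covered 9 of the 10 genes. The C/EBP-type motif stood in 3 of these windows (*Lcn2*, *Lep* and *Rbp4*) and in 10.8% of all 32851 windows of the same length. The kappaB motif was found in *Retn* alone and in 8.46% of all windows. An E-box (CACGTG) lay 50 bases before the start of *Fgf21*, beside 7.15% of all windows, and TATAAA lay 28 bases before *Fgf21* and *Rbp4*, beside 13.6%. The DR1 motif of PPAR-RXR was in none of the 10 windows and in 0.04% of all, and the windows shown for *Adipoq* and *Nampt* held none of the 5 motifs. A match is a run of letters and not a measured binding site.

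With MLL4 present, 7 of the 8 expressed members rose over 2.5-fold from day 0 to day 2 (*Adipoq*, *Retn*, *Rbp4*, *Fgf21*, *Lcn2*, *Nampt* and *Rarres2*) and none was over 2.5-fold lower. Of all expressed genes with a ratio, 8.28% were higher and 12.4% lower by this cutoff. *Lep* and *Cfd* were not expressed, and 6 of the 7 passed the expression filter only through control cells at day 2, so their rise is a description and not support for a rule about adipokines. In Ad-Cre cells 5 of the 7 members with a ratio were over 2.5-fold higher at day 2 (*Adipoq*, *Retn*, *Rbp4*, *Lcn2* and *Rarres2*) and none lower, beside 8.54% and 9.90% of all expressed genes. At day 2 itself, 5 of the 8 expressed members were over 2.5-fold below the control level in Ad-Cre cells (*Adipoq*, *Retn*, *Fgf21*, *Nampt* and *Apln*), where 9.91% of all expressed genes were, and none was over 2.5-fold higher, where 7.94% were. *Adipoq*, *Retn* and *Fgf21* passed the expression filter only in control cells at day 2, the level they are compared with. A gene high in Ad-Cre cells alone could not pass it, so both counts are a description. At day 0, of 5 members with a ratio, *Apln* was over 2.5-fold lower in Ad-Cre cells, beside 3.83% of all expressed genes, and none was higher, beside 1.12%. The median log2 ratio of all expressed genes was 0.15 over the 2 days in control and −0.16 for Ad-Cre to control at day 2, and member ratios should be read against it. The medians of the expressed members with a ratio, a description of genes that mostly passed the filter at day 2 alone, were 3.12 over the 2 days in control, 3.20 in Ad-Cre, −0.50 for Ad-Cre to control at day 0 and −1.90 at day 2. With TMM factors the medians of all expressed genes were 0.09 and −0.05 for the rise in control and for day 2. Each library enters 2 of these comparisons, which are therefore not independent of each other.

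**Figure D1:**
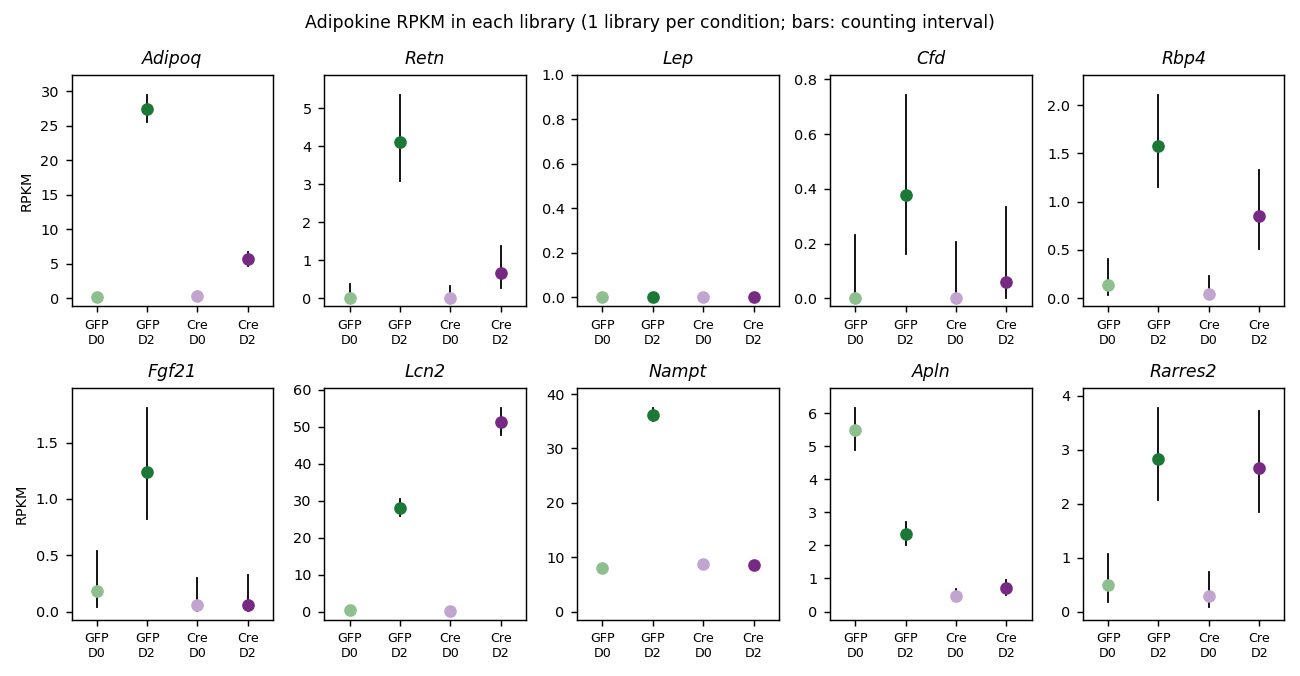
RPKM of each of the 10 genes (vertical axes, each from 0 and on its own scale) in the 4 libraries, Ad-GFP in green and Ad-Cre in purple at day 0 (D0) and day 2 (D2). Points are single libraries and bars are 95% Poisson counting intervals, not drawn for *Lep*, which had 0 reads throughout; *Lcn2* is highest in Ad-Cre cells at day 2 (51.4), while *Adipoq* and *Nampt* are highest in Ad-GFP cells at day 2 (27.5 and 36.2).

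Adiponectin, the product of *Adipoq*, is a hormone of mature fat cells that raises insulin sensitivity. Its gene lies on the plus strand at chr16:23146609-23158101 of NCBI37/mm9, the build of all gene positions that follow. Reads in control cells numbered 3 at day 0 and 779 at day 2. Ad-Cre cells had 7 and 126 (in the same order 0.142, 27.5, 0.291 and 5.67 RPKM). Both day 2 libraries were high and both day 0 libraries near 0. Over the 2 days the log2 ratio was 7.60 in control cells (95% CI 6.05 to 9.88), resting on 3 reads at day 0, and 4.28 in Ad-Cre cells (95% CI 3.20 to 5.63). At day 2 *Adipoq* was 4.85-fold lower in Ad-Cre cells (log2 ratio −2.28). At day 0 the interval of its log2 ratio, −1.09 to 3.62, was too wide to show a difference. In control cells it went from above 0.719% to above 81.2% of the expressed genes by RPKM, and in Ad-Cre cells it stood above 39.6% at day 2.

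Resistin (*Retn*), a cysteine-rich hormone that mouse fat cells secrete, showed a similar order of libraries at lower levels. The gene is on the plus strand at chr8:3655770-3660110. It had 0 reads at day 0 in both cell types, and at day 2 it had 55 in control and 7 in Ad-Cre cells (4.11 and 0.667 RPKM). Its rise was at least 13.7-fold in control cells, and counting error lowers this bound to 10.8-fold. In Ad-Cre cells it was at least 2.53-fold, close to the cutoff, and the counting error of the 7 reads lowers this bound to 1.56-fold. At day 2 *Retn* was 6.16-fold lower in Ad-Cre cells (log2 ratio −2.62, 95% CI −4.00 to −1.49). The other transcript listed for it had 52 and 6 reads at day 2, nearly the same reads, but 1.99 and 0.292 RPKM.

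Leptin (*Lep*, chr6:29010220-29023877, plus strand), the satiety hormone, had 0 reads in all 4 libraries, which leaves room for a low level. Adipsin, or complement factor D (*Cfd*, chr10:79353598-79355401, plus strand), is the protease that starts the alternative complement pathway and an abundant product of mature fat. It had 8 reads in control cells at day 2, 1 in Ad-Cre cells at day 2 and 0 in both at day 0. Ad-Cre over control at day 2 gave a log2 ratio of −2.65, with a 95% CI of −8.12 to 0.25 that spans 0, so a difference was not detectable at this depth. Neither gene passed 1 RPKM, and the day 2 level of *Cfd* was 0.377 RPKM in control cells.

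Of the carriers of small lipids, retinol-binding protein 4 (*Rbp4*, chr19:38191110-38199811, minus strand) brings vitamin A through the blood. It had 3 and 45 reads in control cells and 1 and 19 in Ad-Cre cells at days 0 and 2 (0.140, 1.58, 0.0412 and 0.848 RPKM). The log2 rise was 3.49 in control (95% CI 1.85 to 5.82) and 4.36 in Ad-Cre cells (95% CI 1.71 to 9.74), both on 3 reads or fewer at day 0. With 1 RPKM added to both levels these rises were 1.175 and 0.827, within the cutoff. At day 2 it was 1.86-fold lower in Ad-Cre cells (95% CI of the log2 ratio −1.75 to −0.09), within the cutoff. A second listed transcript held the same reads in every library, but its RPKM at day 2 was 2.1 in control and 1.13 in Ad-Cre cells.

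Lipocalin 2 (*Lcn2*, chr2:32240153-32243317, minus strand), which binds bacterial iron carriers and takes part in innate defence, went the other way at day 2. control cells had 5 reads at day 0 and 550 at day 2, and Ad-Cre cells had 4 and 790 (0.341, 28.1, 0.240 and 51.4 RPKM). Both cell types were near 0 at day 0 and both were high at day 2, with Ad-Cre above control. The log2 rise was 6.36 in control (95% CI 5.13 to 7.99) and 7.74 in Ad-Cre cells (95% CI 6.38 to 9.62), and these intervals overlap. At day 2 *Lcn2* was 1.83-fold higher in Ad-Cre cells (log2 ratio 0.87, 95% CI 0.71 to 1.03), within the 2.5-fold cutoff but outside counting error. After removal of the trends over transcript length and GC content the log2 ratio was 0.36. In Ad-Cre cells at day 2 it stood above 90.8% of the expressed genes by RPKM, and it was the highest of the 10 members.

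FGF21 (*Fgf21*, chr7:52869277-52870860, minus strand) is a hormone of fasting and cold that acts through FGFR1 and its co-receptor beta-klotho. control cells had 3 reads before and 27 after the 2 days, and Ad-Cre cells had 1 read each time (0.184, 1.24, 0.0541 and 0.0586 RPKM). Only the control day 2 library was above 3 reads. The log2 rise in control cells was 2.75 (95% CI 1.05 to 5.12). At day 2 the log2 ratio of Ad-Cre to control was −4.41 with a wide interval, −9.76 to −1.80, since it rests on 1 read in Ad-Cre cells. With 1 RPKM added to both levels neither this ratio (−1.08) nor the rise in control cells (0.92) passed the cutoff.

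NAMPT (*Nampt*, chr12:33505200-33538234, plus strand) is the rate-limiting enzyme of NAD salvage, and a form found outside cells was named visfatin. Of the 10 genes it had the most reads at day 0. control cells had 628 reads at day 0 and 3786 at day 2, and Ad-Cre cells had 768 and 704 (8.03, 36.2, 8.66 and 8.59 RPKM). The control day 2 library was high, and the other 3 lay between 8.03 and 8.66 RPKM. The log2 rise was 2.17 in control cells (95% CI 2.05 to 2.30), and the log2 ratio in Ad-Cre cells was −0.01 (95% CI −0.16 to 0.14). The change in Ad-Cre cells less that in control cells was −2.18 on the log2 scale (counting SE 0.0976, 95% CI −2.38 to −1.99), and −1.22 with the trends over transcript length and GC content removed. At day 2 *Nampt* was 4.22-fold lower in Ad-Cre cells (log2 ratio −2.08, 95% CI −2.20 to −1.96). With the length and GC trends removed this log2 ratio was −1.21, which is within the cutoff, and the log2 ratio of day 2 to day 0 in Ad-Cre cells turned to 0.57. Of 450 windows of 50 bases along the transcript, 66 (14.7%) also matched elsewhere in the genome with at most 2 mismatches, mostly on chromosome 14, so part of its reads may be shared with a copy. The other 9 genes had no such window.

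Apelin (*Apln*, chrX:45378323-45388030, minus strand) is a peptide of vessels and fat that acts on the receptor APLNR. It was the only member past the cutoff between cell types at day 0. All others but *Nampt* had 7 reads or fewer there in both cell types, so a difference in them could be missed. For *Apln*, control cells had 297 reads before and 169 after the 2 days, and Ad-Cre cells had 29 and 40 (5.49, 2.34, 0.472 and 0.705 RPKM). Both control libraries were above both Ad-Cre libraries. At day 0 *Apln* was 11.6-fold lower in Ad-Cre cells (log2 ratio −3.54, 95% CI −4.14 to −2.99), and at day 2 it was 3.31-fold lower (log2 ratio −1.73, 95% CI −2.26 to −1.22). The near end of this day 2 interval lies within the cutoff, and with 1 RPKM added the ratio was −0.97. Over the 2 days it was 2.35-fold lower in control cells, within the cutoff (log2 ratio −1.23, and −1.43 and past it with the length and GC trends removed), while in Ad-Cre cells the interval of its log2 ratio, −0.15 to 1.32, spans 0. The change in Ad-Cre cells less that in control cells was 1.81 (counting SE 0.378, 95% CI 1.07 to 2.55).

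Most preadipocyte markers shared the lower level of *Apln* in Ad-Cre cells before differentiation. At day 0, 4 of 5 (*Dlk1*, *Ly6a*, *Cd34* and *Pdgfra*) were over 2.5-fold lower in Ad-Cre cells, beside 3.83% of all expressed genes. The summed RPKM of the 5 was 325.5 in control and 143.7 in Ad-Cre cells. *Dlk1*, which holds preadipocytes undifferentiated, had 10525 and 859 reads at day 0. *Pdgfrb* had 8371 and 13013. At day 2 the sums were 105.3 and 69.9, and the markers went in both directions. *Dlk1* (log2 ratio −1.52) and *Ly6a* (−2.65) were over 2.5-fold lower in Ad-Cre cells. *Pdgfra* (−0.29), *Pdgfrb* (0.09) and *Cd34*, which was higher (1.03), were within the cutoff. Of 5 muscle markers *Acta1* had most reads, 453 in control against 1356 in Ad-Cre cells before differentiation and 12 against 88 after it began. *Des* went the other way before differentiation, with 19 against 0 reads, and had 5 against 49 after it began, and *Myod1*, *Myog* and *Myf5* had at most 1 read in any library. The part of these in the difference in *Apln* was not tested.

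Chemerin (*Rarres2*, chr6:48519697-48522669, minus strand), a chemoattractant that fat cells release and that acts on CMKLR1, rose in both cell types. It had 6 and 46 reads in control cells and 4 and 34 in Ad-Cre cells (0.493, 2.83, 0.290 and 2.66 RPKM). The log2 rise was 2.52 in control (95% CI 1.29 to 4.04) and 3.20 in Ad-Cre cells (95% CI 1.71 to 5.16). At day 2 the log2 ratio of Ad-Cre to control was −0.09 with an interval of −0.77 to 0.59, which leaves room for a difference in either direction. Its sign turned positive under TMM, median-of-ratios and summed-read scaling (0.03, 0.05 and 0.05). With the length and GC trends removed the log2 ratio was −0.65.

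**Figure D2:**
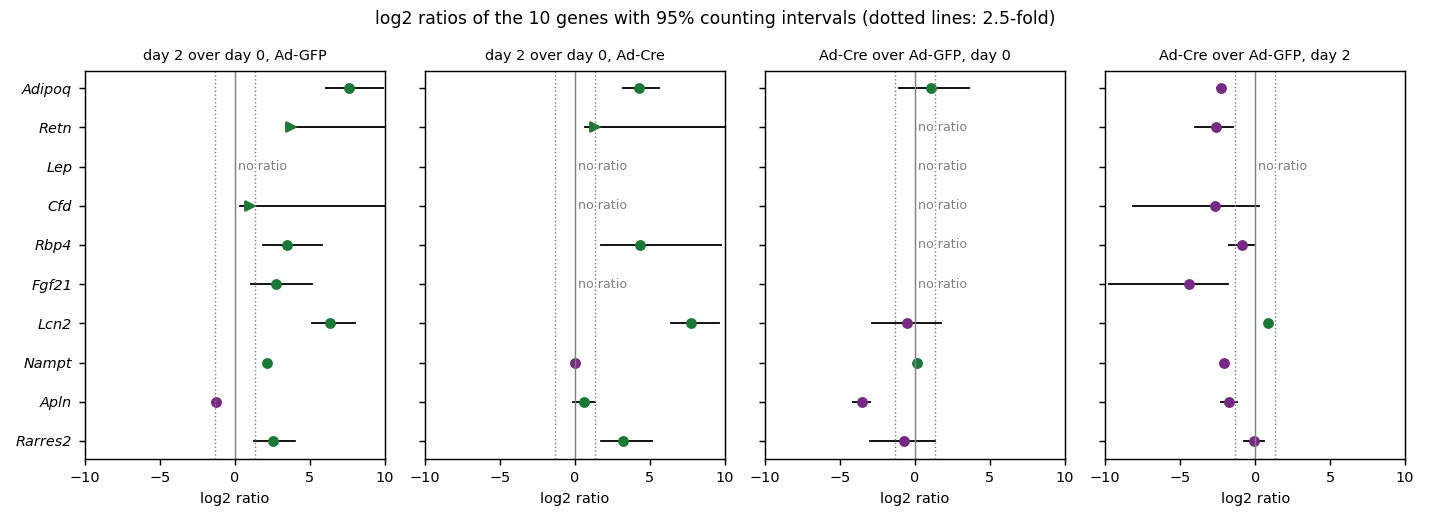
log2 ratios of the 10 genes in the 4 comparisons (horizontal axes, 0 at no difference), with bars for 95% counting intervals, triangles for lower bounds where a library had 0 reads and "no ratio" where both libraries had 3 reads or fewer. Dotted lines mark 2.5-fold; at day 2 (right) *Adipoq*, *Retn*, *Fgf21*, *Nampt* and *Apln* lie left of the lower line, with *Cfd*, which was not expressed and whose interval spans 0, and *Lcn2* lies right of 0 at 0.87.

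By RPKM, the order of the 10 genes in control cells at day 2 was *Nampt* (36.2), *Lcn2* (28.1), *Adipoq* (27.5), *Retn* (4.11), *Rarres2* (2.83), *Apln* (2.34), *Rbp4* (1.58), *Fgf21* (1.24), *Cfd* (0.377) and *Lep* (0). The counting intervals of *Lcn2* and *Adipoq* overlapped, as did those of each neighbouring pair from *Retn* down to *Fgf21*. The places from *Retn* down also depend on the transcript kept. The other listed *Retn* transcript had 1.99 RPKM there, below *Rarres2* and *Apln*, and the other of *Rbp4* had 2.1. In Ad-Cre cells at day 2 *Lcn2* (51.4) stood first, before *Nampt* (8.59), *Adipoq* (5.67) and *Rarres2* (2.66). *Rbp4*, *Apln* and *Retn* followed between 0.667 and 0.848 with overlapping intervals. The other transcripts of *Rbp4* and *Retn* had 1.13 and 0.292 RPKM in this library. At day 0 *Nampt* led in both cell types, and *Apln* (5.49 RPKM) was the only other of the 10 above 1 RPKM, in control cells alone.

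**Figure D3:**
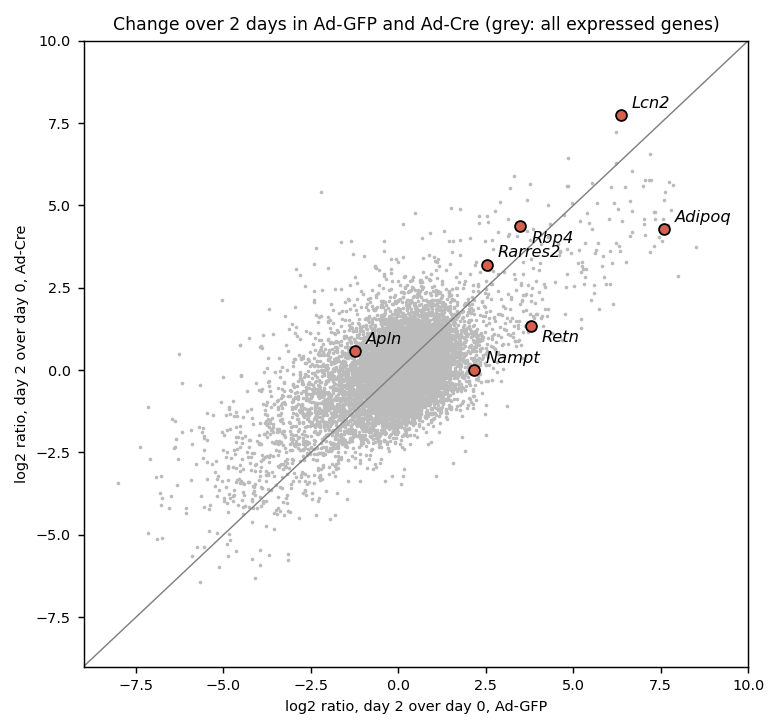
log2 ratio of day 2 to day 0 in Ad-GFP (horizontal) against Ad-Cre cells (vertical), 1 grey point per expressed gene and red points for the 7 members with both ratios; the grey line marks equal change. *Adipoq*, *Retn* (both of its values are lower bounds) and *Nampt* lie below the line, and *Lcn2*, *Rbp4*, *Rarres2* and *Apln* lie above it; the distance from the line was not tested.

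The receptors and carriers of these factors were listed as well, and 6 of the 16 were expressed. At day 2, 2 of the 6 were over 2.5-fold lower in Ad-Cre cells (*Adipor2* and *Klb*) and 1 was higher (*Slc22a17*), with a median log2 ratio of −0.66 beside −0.16 for all expressed genes. Of all expressed genes 9.91% were lower and 7.94% higher by this cutoff. *Adipor2*, a receptor of adiponectin, had 1179 and 21575 reads in control and 1147 and 3420 in Ad-Cre cells at days 0 and 2 (log2 ratio at day 2 −2.31). The other adiponectin receptor, *Adipor1*, had a log2 ratio of −0.23 at day 2. *Cdh13*, or T-cadherin, which binds adiponectin, was under 1 RPKM in control cells and higher in Ad-Cre cells, with 22 and 100 reads at day 2 (log2 ratio 2.54, 95% CI 1.86 to 3.27) and 27 and 102 at day 0. *Klb*, which makes the beta-klotho that FGF21 needs, had 2 and 388 reads in control and 4 and 44 in Ad-Cre cells (log2 ratio at day 2 −2.79, 95% CI −3.28 to −2.34). *Fgfr1* was 1.08 lower on the log2 scale, within the cutoff, with 20437 and 7571 reads at day 2. *Slc22a17*, a receptor of lipocalin 2, had 774 and 1654 reads at day 2 (log2 ratio 1.45). *Lrp2*, another listed receptor, went the other way, with 63 and 8 reads at day 2 (log2 ratio −2.63). It was under 1 RPKM. *Cmklr1*, the chemerin receptor, was likewise under 1 RPKM, with 41 and 3 reads at day 2. The receptors of leptin and apelin, *Lepr* and *Aplnr*, had at most 4 reads in any library.

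Of 16 transcription factors of fat cell differentiation 15 were expressed. From day 0 to day 2, 9 rose over 2.5-fold in control and 8 in Ad-Cre cells, beside 8.28% and 8.54% of all expressed genes. At day 2, 5 were over 2.5-fold lower in Ad-Cre cells (*Pparg*, *Cebpa*, *Nr1h3*, *Klf15* and *Stat5a*) and 1 was higher (*Cebpd*), with a median log2 ratio of −1.16. The shares of all expressed genes were 9.91% lower and 7.94% higher. *Pparg*, the master regulator of fat cells, had 105 and 1645 reads in control and 36 and 252 in Ad-Cre cells (log2 ratio at day 2 −2.36). *Cebpa*, which works with it, had 40092 and 8062 reads at day 2 (log2 ratio −1.96). *Cebpd*, an early and stress-responsive C/EBP factor, had 3000 and 7699 (log2 ratio 1.71). *Srebf1*, a regulator of lipid synthesis, was within the cutoff with 22351 and 8266 reads. At day 2 all 6 adipocyte markers were also over 2.5-fold lower in Ad-Cre cells (median log2 ratio −2.14). *Cidec* (−2.17), *Lipe* (−2.14), *Pnpla2* (−2.15) and *Slc2a4* (−2.28) lay near the −2.28 of *Adipoq*. *Fabp4* (−2.00) and *Plin1* (−1.68) were further from it. Their part in the differences of *Adipoq*, *Retn*, *Fgf21* and *Nampt* was not tested.

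Adiponectin is folded and modified in the endoplasmic reticulum before release, and 10 of 11 listed genes for these steps were expressed. At day 2, 1 of the 10 was over 2.5-fold lower in Ad-Cre cells, near the 9.91% of all expressed genes. None was higher, where 7.94% of all were, and the median log2 ratio was −0.06. The lower gene was *Ero1a*, an oxidase that helps to release adiponectin from ERp44, with 5173 and 572 reads at day 2 (log2 ratio −2.83, 95% CI −2.95 to −2.70). Its relative *Ero1b* had 139 and 46 reads (−1.25). The chaperone *Hspa5* (−0.46) and the disulfide isomerase *P4hb* (0.40) were within the cutoff.

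Around *Nampt*, 8 of 10 listed genes of NAD synthesis and use were expressed. At day 2 only *Nmnat3* of the 8 was over 2.5-fold lower in Ad-Cre cells, near the 9.91% of all expressed genes. None was higher, where 7.94% of all were, and the median log2 ratio was −0.69. *Nmnat3*, which makes NAD in mitochondria, had 169 and 22 reads at day 2 (log2 ratio −2.59). The NAD-using deacetylase *Sirt1* (732 and 248 reads, −1.21) and *Parp1* (3190 and 1660 reads, −0.59) were within the cutoff.

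Around *Lcn2*, 8 of 14 listed acute phase genes were expressed. At day 2, 3 were over 2.5-fold lower in Ad-Cre cells (*C3*, *Hp* and *Saa3*) and 1 was higher (*Nfkbia*), with a median log2 ratio of −0.32. Beside these stand 9.91% lower and 7.94% higher among all expressed genes. Complement *C3* had 3883 and 336 reads at day 2 (log2 ratio −3.18), and haptoglobin, *Hp*, had 4885 and 1251 (−1.62). *Saa3* rests on 16 and 1 reads. *Nfkbia*, the inhibitor of NF-kappaB that is itself an NF-kappaB target, had 1138 and 3391 (log2 ratio 1.93). *Ptx3* had 2438 and 1540 reads and was within the cutoff (−0.31).

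**Figure D4:**
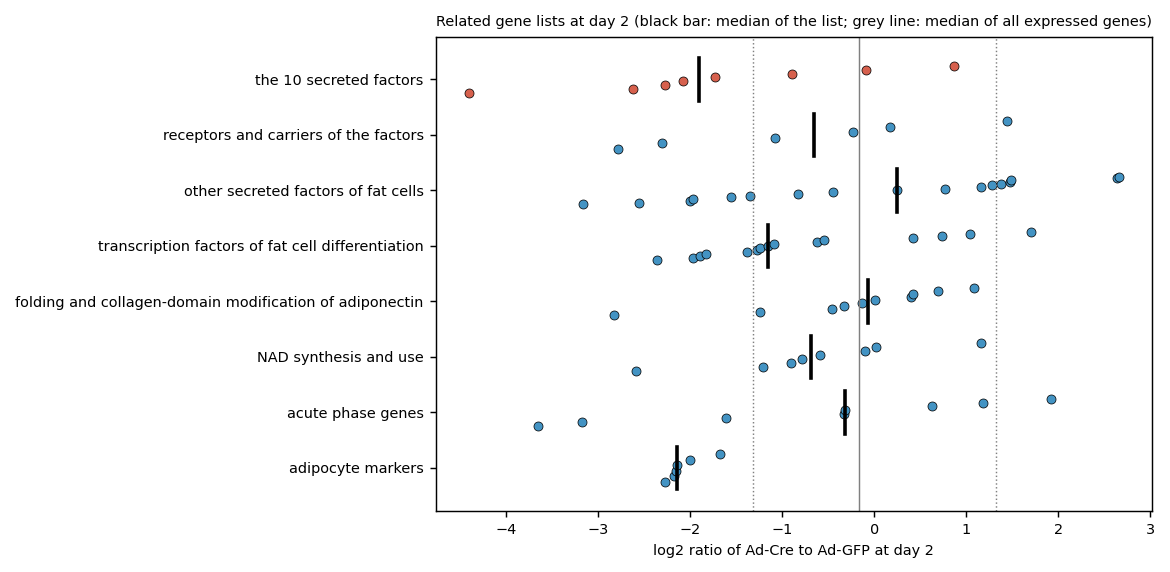
Day 2 log2 ratios, Ad-Cre over Ad-GFP (horizontal), for the expressed genes of the 10 secreted factors (red) and of 7 related lists (blue), 1 point per gene. Black bars are list medians, the grey line is the median of all expressed genes (−0.16) and dotted lines mark 2.5-fold. The 6 adipocyte markers range from −2.28 to −1.68 with a median of −2.14, while the acute phase genes range from −3.65 to 1.93.

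The genes whose pattern over the 4 libraries was nearest to *Adipoq* and to *Lcn2* were looked up among 11860 genes, by Euclidean distance of log2(RPKM + 0.1) after subtraction of each gene's mean. With 4 libraries this is a description of levels only. Close to *Adipoq* were *Igfbp2* (distance 0.343), *Adcy5* (0.407), *Zbtb16* (0.429) and *Ppp1r1a* (0.440). *Igfbp2*, a binding protein of insulin-like growth factors, had 37, 5100, 49 and 821 reads in control at days 0 and 2 and Ad-Cre at days 0 and 2. These 4 had log2 ratios of Ad-Cre to control at day 2 between −2.58 and −2.28. The genes nearest to *Lcn2* were further away: *Map7d2* (1.13), *Agtr2* (1.31), *Igfbp4* (1.49), *Hp* (1.82) and *G0s2* (1.87). Of these 5, *Agtr2*, an angiotensin receptor, had more reads per depth in Ad-Cre than in control cells at day 2 (1805 and 1914 reads, log2 ratio 0.43). The other 4 had log2 ratios from −1.76 to −0.50.

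**Figure D5:**
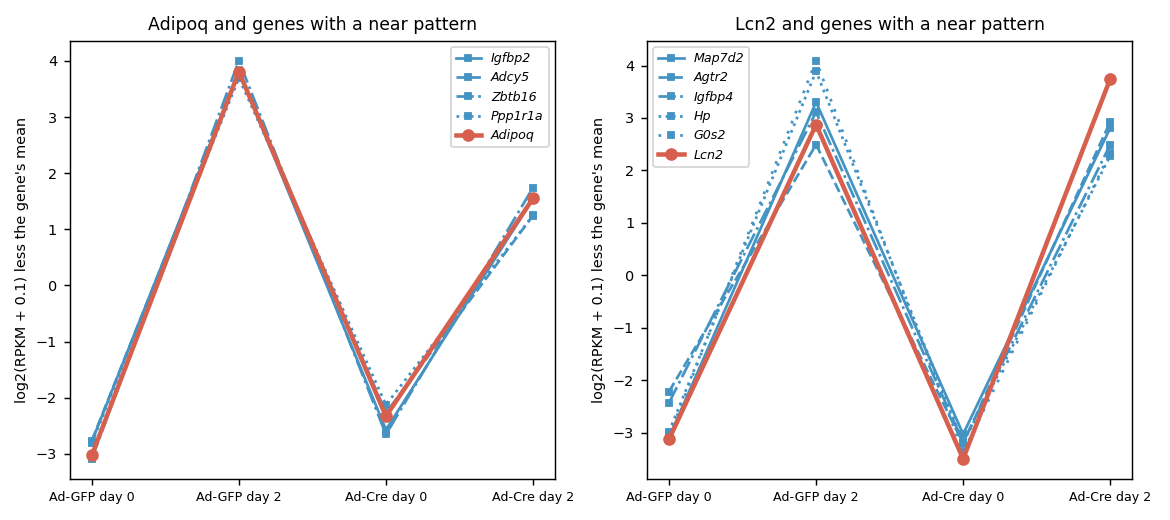
log2(RPKM + 0.1) less the gene's mean (vertical) in the 4 libraries for *Adipoq* (left) and *Lcn2* (right), in red, with the near genes named in the text in blue. The *Adipoq* neighbours overlie it, at distances up to 0.440, and the *Lcn2* neighbours lie below it in Ad-Cre cells at day 2.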

How the data were processed

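RNA-Seq was analysed from 4 libraries, 1 per condition. The authors aligned 50-base reads of the Illumina pipeline to NCBI37/mm9 and deposited whole-number read counts for 29082 RefSeq transcripts. The authors also deposited RPKM, normalized to exon length and mapped reads. Their processing notes name bedtools 2.16, without a role, and SICER 1.1, which the study used for ChIP-Seq regions and not for these counts, and handling of multiple matches, strand and duplicates is not given in the sources used here.

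Symbols came from a GRCm38.p6 RefSeq table (97.8% matched) and positions and GC content from GENCODE vM1 on NCBI37/mm9. RefSeq promoter windows covered 9 of the 10 genes, and the other, *Rarres2*, is named only. Ratios were those of deposited RPKM, with intervals from read counts (Python 3.11.15, scipy 1.17.1, numpy 2.4.6, pandas 2.3.3, matplotlib 3.10.9). Shared sequence was searched with blastn 2.17.0. TMM factors (edgeR 4.0.16) and median-of-ratios size factors (DESeq2 1.42.0, R 4.3.3) only rescaled ratios. Intervals and calls were tested on simulated data. That check cannot show spread between replicates, and no support is drawn from it for members with few reads, such as *Retn*, *Cfd*, *Rbp4*, *Fgf21* and *Rarres2*. Nor is any drawn for the bounds where a library had no reads. From each related list up to 4 genes were named, the 2 with the largest ratio at day 2 and the 2 with most reads, among genes with at least 20 reads in a library, besides genes in counts of 5 or fewer and a few receptors and markers chosen after their values were seen. For *Adipoq* and *Lcn2* the 5 nearest genes were to be named. Some genes that these rules select are not reported here. Members and lists were chosen with earlier results of these data known. The alternatives, 12 in all, covered scaling, pseudocount, transcript choice, length and GC trend, filters, fold cutoffs and counting error.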

Additional observations from a re-analysis of the deposited data

Results flagged for a closer look

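The difference between the changes was formed only for members with at least 5 reads in every library, which were *Nampt* and *Apln*. Expression of both moved over the 2 days differently in the libraries with and without Cre. *Adipoq*, with log2 ratios of 7.60 in control and 4.28 in Ad-Cre cells, was left out for its 3 reads at day 0 in control cells. Over the 2 days *Nampt* changed by a log2 ratio of 2.17 in control and −0.01 in Ad-Cre cells, and the log2 change in Ad-Cre less that in control cells was −2.18 (95% counting interval −2.38 to −1.99). With the trends over transcript length and GC content removed it was −1.22, outside that interval. The ratios of *Apln* were −1.23 and 0.58, with a difference of 1.81 (95% counting interval 1.07 to 2.55) and of 1.17 with 1 RPKM added, from a day 0 level that was 11.6-fold lower in Ad-Cre cells. With 1 library per condition, neither difference was tested against replicate spread.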

How the results depend on the processing

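Over 12 alternatives, the counts of members past the cutoff stayed within 1.5 times for rises in control cells (5 to 7), lower levels in Ad-Cre cells at day 0 (1) and higher levels there at day 2 (0). With 1 RPKM added to each level, the rises in Ad-Cre cells numbered 3 in place of 5, as *Retn* and *Rbp4* no longer passed. The members lower in Ad-Cre cells at day 2 then numbered 3 in place of 5, as *Fgf21* and *Apln* no longer passed. The added value shrinks ratios of low genes. *Apln* at day 2 was also lost at 4-fold and at the near bound of its interval. The day 2 count was otherwise 4 to 6. With the length and GC trends removed it was 5, with *Rbp4* in place of *Nampt*. The call of *Retn* in Ad-Cre cells was lost with these trends removed, at 4-fold, with at least 20 reads required, with 1 RPKM added and at the near bound of its interval. Of 30 member ratios, 29 kept their direction with TMM factors, 29 with median-of-ratios size factors and 28 with the sum of deposited reads. With length and GC trends removed, 27 of 28 did. The exceptions were *Nampt* over 2 days in Ad-Cre cells (−0.01, turning to 0.17 and 0.57) and *Rarres2* at day 2 (−0.09, turning to 0.03, 0.05 and 0.05), and the cause was not tested. GC content was known for 85.1% of expressed genes. No paired analysis was possible because each condition has 1 library, and no library could be left out for the same reason. Depth limits *Lep*, *Cfd*, *Fgf21* and the day 0 levels of most members, which rest on 7 reads or fewer.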

Other observations

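Beyond the 10 genes, 17 of 28 other secreted factors of fat cells were expressed. At day 2, 6 were over 2.5-fold lower and 5 higher in Ad-Cre than in control cells, with a median log2 ratio of 0.25. Among all expressed genes 9.91% were lower and 7.94% higher. Of the 5 higher factors, *Ccl2* rests on 5 and 11 reads, and the interval of its log2 ratio, −0.15 to 3.36, spans 0. *Agt*, the precursor of angiotensin, had 34 and 8438 reads in control and 53 and 737 in Ad-Cre cells at days 0 and 2 (log2 ratio at day 2 −3.17, 95% counting interval −3.28 to −3.06). *Vegfa*, the growth factor of vessels, had 16855 and 3365 reads at day 2 (log2 ratio −1.97). *Enho*, which encodes the peptide adropin, had 28 and 139 reads (log2 ratio 2.66) and *Adm*, the vasodilator adrenomedullin, had 51 and 111 (1.47). *C1qtnf4*, a relative of adiponectin that did not pass 1 RPKM in control cells, had 10 and 57 reads (2.86). Another adiponectin relative, *C1qtnf3*, had 92 reads in control and 1841 in Ad-Cre cells at day 0 (log2 ratio 4.14), and 8 and 39 at day 2 (2.64).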
